A study of Mus musculus with 2 samples.

Results

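The genes described here are the neutrophil-attracting chemokines Cxcl1, Cxcl2 and Cxcl3, their receptor Cxcr2, and the receptor Cxcr4 with its ligand Cxcl12. They were taken by gene symbol, 6 of the 32285 genes of the deposited matrices, and each symbol matched 1 gene. Cells were leukocytes (live, CD45+) sorted from livers of male C57Bl6/J mice that had been lethally irradiated and given Trem2-/- or Trem2+/+ littermate marrow, left to recover for 6 weeks and fed a methionine- and choline-deficient (MCD) diet for 4 weeks, which induces steatohepatitis. Both groups shared the irradiation, the transplant and the diet, so neither is a healthy liver. Cells of 4 mice were pooled for each group and sequenced as 1 library with 10x Genomics 5' chemistry, so there is no replicate and no test between the groups. The knockout was carried by donor marrow, while recipient cells that survive irradiation, including liver endothelium and possibly some resident macrophages, keep the recipient's genotype.

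CXCR2 is a G protein-coupled receptor that draws neutrophils along gradients of CXCL1, CXCL2 and CXCL3, which macrophages, monocytes, stromal cells and neutrophils themselves can make within a short time of an inflammatory signal. CXCL12, made mainly by stromal cells, binds CXCR4 and holds neutrophils in the bone marrow, and signalling through CXCR2 opposes that hold. TREM2 is a lipid-sensing receptor of macrophages that accumulates in the macrophages of fatty and fibrotic livers.

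On the mouse genome build mm10, all 3 ligands of CXCR2 lie on the forward strand of chromosome 5, each with 4 exons in its first listed transcript. Cxcl3 (ENSMUSG00000029379) spans 90786103 to 90789600, Cxcl1 (ENSMUSG00000029380) 90891241 to 90893115 and Cxcl2 (ENSMUSG00000058427) 90903871 to 90905938. Cxcl1 and Cxcl2 are 10755 bases apart, and Cxcl3 ends 101640 bases before Cxcl1. Cxcr2 (ENSMUSG00000026180; 74153989 to 74161246) and Cxcr4 (ENSMUSG00000045382; 128588199 to 128592293) are both on chromosome 1, and Cxcl12 (ENSMUSG00000061353; 117168535 to 117181367) is on chromosome 6. The transcripts of Cxcl2 and Cxcl3 share an identical run of 110 bases that begins at base 61 of Cxcl2 and base 57 of Cxcl3, near the 5' end where this chemistry reads. A read that lies within the run cannot be assigned to one of the pair, so the split between Cxcl2 and Cxcl3 is uncertain. The longest run that Cxcl1 shares with either is 23 bases.

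The 3 ligand promoters are shown because all 3 genes were found in neutrophil-like and macrophage-like cells, though Cxcl3 was low in Ly6C-high monocyte-like cells. Each line gives 90 bases that end just before the earliest annotated start, from RefSeq promoter sequences of GRCm38.p6, forward strand, and the capitals mark the longest run of letters common to all 3, which holds a form of the NF-kB motif.
Cxcl1, chr5:90891151-90891240: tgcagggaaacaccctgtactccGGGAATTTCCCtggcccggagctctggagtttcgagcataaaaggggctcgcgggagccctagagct
Cxcl2, chr5:90903781-90903870: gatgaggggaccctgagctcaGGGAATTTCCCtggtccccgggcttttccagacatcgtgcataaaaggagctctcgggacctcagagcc
Cxcl3, chr5:90786011-90786100: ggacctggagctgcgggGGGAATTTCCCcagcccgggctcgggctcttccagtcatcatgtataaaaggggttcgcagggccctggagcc
The capitals begin 67, 69 and 73 bases before the start in Cxcl1, Cxcl2 and Cxcl3. Searched on both strands, GGGAATTTCCC occurs in 14 of 32851 promoter windows of 300 bases (0.0426%), and not in the windows of Cxcr2, Cxcr4 and Cxcl12. These are matches of letters, and no binding was measured.

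The Trem2-/- library held 6362 barcodes and 25288032 UMIs (molecules counted once each), and the Trem2+/+ library 7012 barcodes and 27238586 UMIs. After filtering, 5974 and 6596 cells were kept, with medians of 2931.5 and 2492 UMIs. The libraries shared 56 barcode sequences. Trem2 itself had 154 UMIs (6.19 CPM, UMIs scaled to a common total) with Trem2-/- marrow and 5478 UMIs (204 CPM) with Trem2+/+ marrow, the order the labels give. Clusters were named from markers that include none of the 6 genes, with those genes left out of the clustering. Macrophage-like cells made up 6.03% (Trem2-/- marrow) and 20.3% (Trem2+/+ marrow) of kept cells, neutrophil-like cells 9.06% and 10.9%, and Ly6C-high monocyte-like cells 6.61% and 7.67%. Endothelial-like cells, 16.2% and 10.2% of kept cells, hold little of the sort marker, with Ptprc (CD45) at 59.7 and 83.7 CPM. All levels below are CPM of summed UMIs in a class, all ratios are log2 of Trem2-/- over Trem2+/+, and brackets hold 95% intervals for counting error only. UMIs of 1 cell are not independent, so the true error is wider than these intervals.

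**Figure D1:**
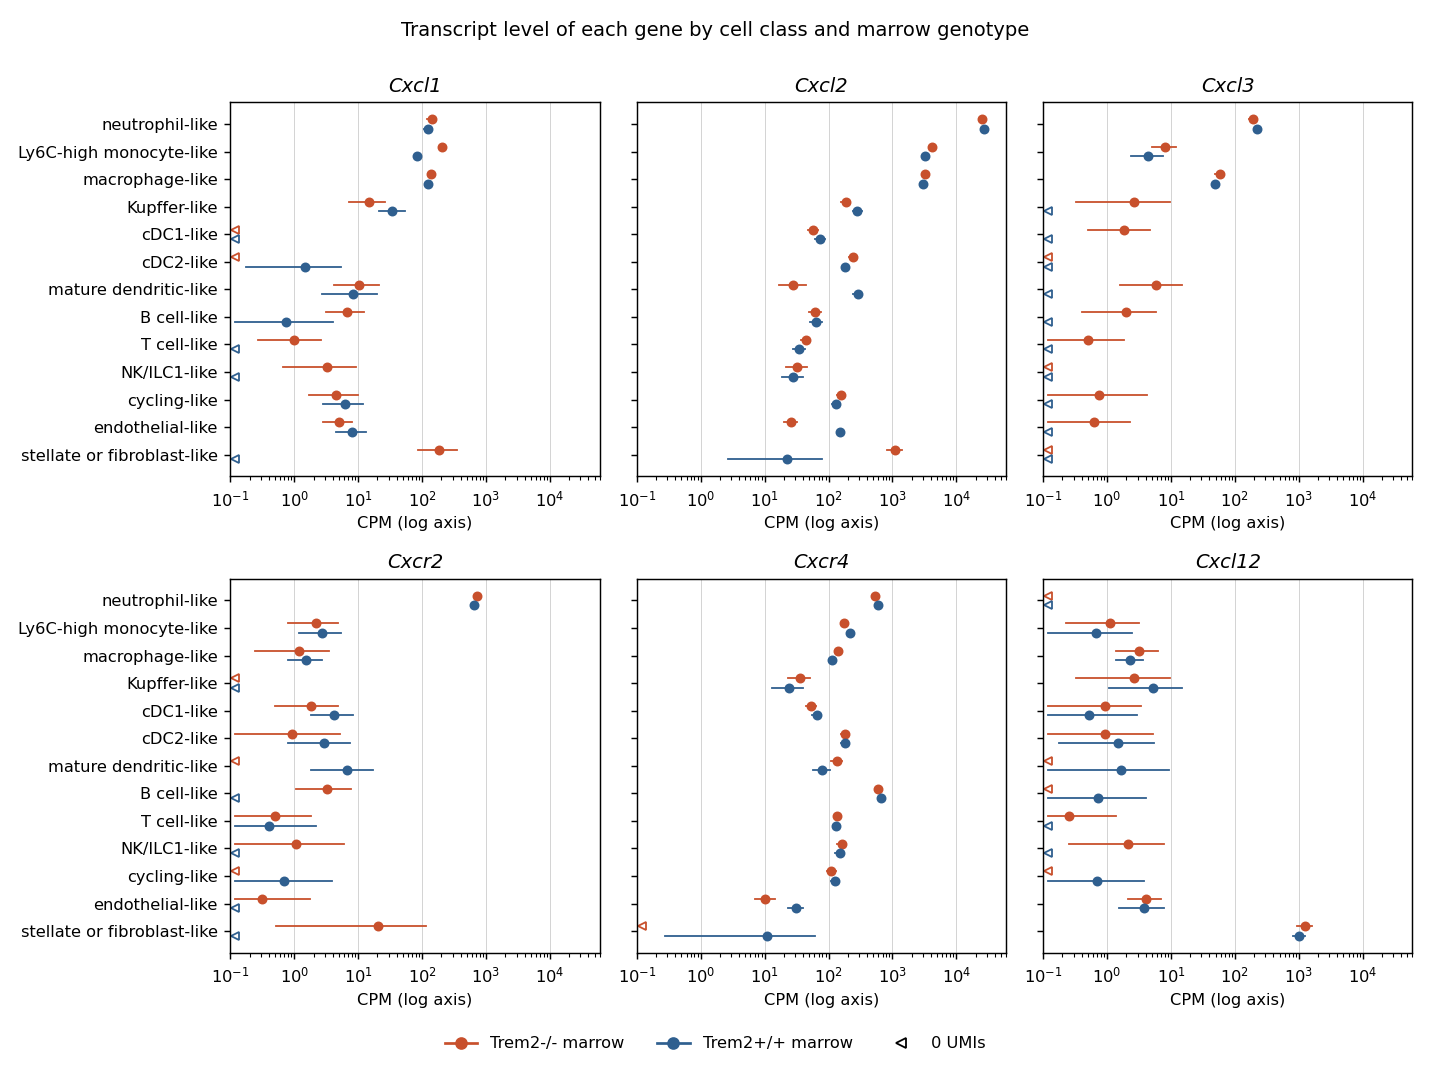
Level of each gene (CPM, log axis) in 13 classes of cells, Trem2-/- marrow above Trem2+/+ marrow in each class, with exact 95% Poisson intervals as lines and open triangles where no UMI was counted. Cxcl2 and Cxcr2 peak in neutrophil-like cells, at 25389 and 717 CPM with Trem2-/- marrow and 26692 and 660 CPM with Trem2+/+ marrow, while Cxcl12 stands above 1000 CPM in stellate or fibroblast-like cells only.

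Over all kept cells, the ligands of CXCR2 stood lower in the Trem2-/- library and the receptor did not. Cxcl2 stood at 2118 CPM with Trem2-/- marrow (2100 to 2136) and at 2636 CPM with Trem2+/+ marrow (2617 to 2656), or -0.32 on the log2 scale. Cxcl1 was at 48.8 and 55.6 CPM (-0.19), and Cxcl3 at 17.7 and 25.6 CPM (-0.54). Cxcr2 stood at 35.7 CPM (33.4 to 38.2) with Trem2-/- marrow and 34.5 CPM (32.3 to 36.8) with Trem2+/+ marrow, a ratio of 0.05 (-0.08 to 0.19). Cxcr4 was at 160 and 170 CPM (-0.09), and Cxcl12 at 3.90 and 5.22 CPM (-0.42). Of the 6 genes, 0 were past 1.5-fold with an interval that excludes 0, against 6.48% of the 6230 genes whose mean level reached 20 CPM.

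The ratios of the ligands turned when the mix of cells was held fixed. With each class given its share of UMIs in the Trem2+/+ library, the log2 ratios were 0.41 for Cxcl1, 0.06 for Cxcl2 and 0.16 for Cxcl3. Macrophage-like cells are the class whose share differed most between the libraries among the main sources of these ligands. Cxcr4 moved to -0.03 and Cxcl12 to 0.19.

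Nearly all Cxcl2 came from neutrophil-like, Ly6C-high monocyte-like and macrophage-like cells, in proportions that differed between the libraries. Neutrophil-like cells held 57.9% of the Cxcl2 UMIs of the Trem2-/- library (57.5 to 58.4) and 50.6% of those of the Trem2+/+ library (50.2 to 51.0). Macrophage-like cells held 15.6% and 32.7%, and monocyte-like cells 22.0% and 13.8%. For Cxcl1, the main source was monocyte-like cells in the Trem2-/- library, with 45.8% of its UMIs (43.0 to 48.6) against 16.8% in the Trem2+/+ library. In the Trem2+/+ library it was macrophage-like cells, which held 28.3% in the Trem2-/- library and 65.2% in the Trem2+/+ library. Cxcl3 was split between neutrophil-like cells (52.3% and 42.9%) and macrophage-like cells (33.6% and 54.8%), and monocyte-like cells held 22 of 440 and 13 of 688 of its UMIs.

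**Figure D2:**
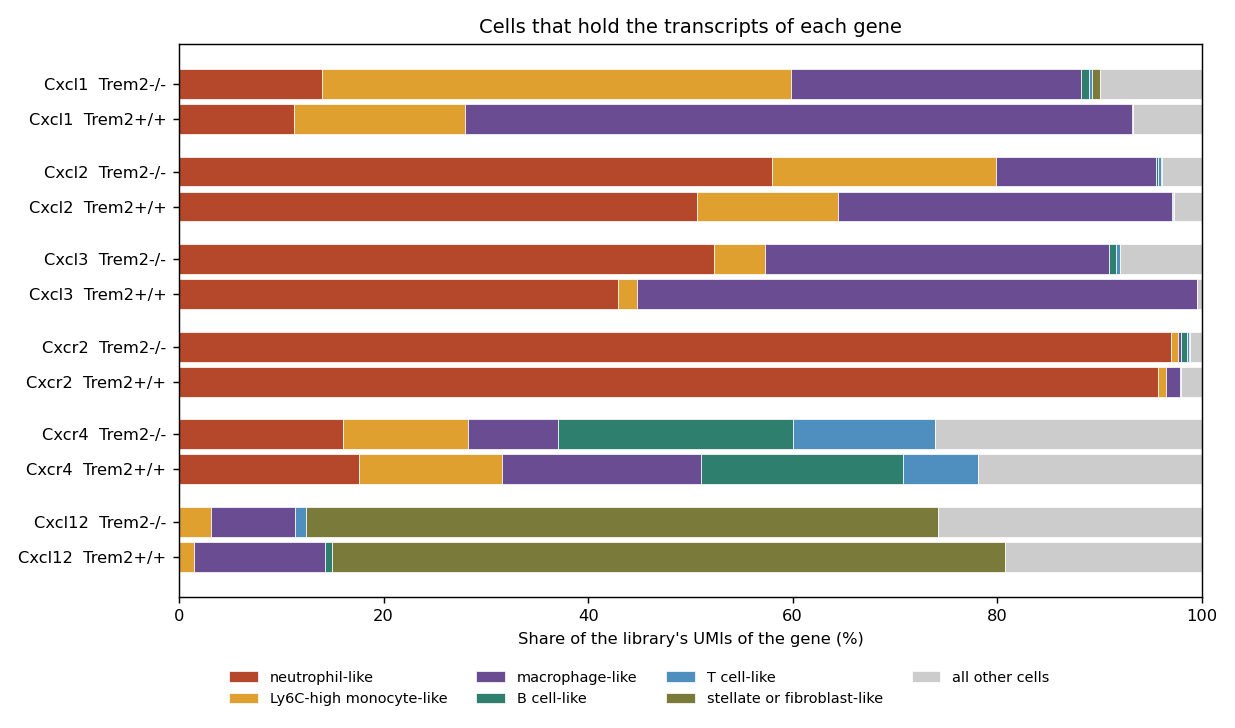
Share of each gene's UMIs (%) held by each class of cells, with the Trem2-/- library above the Trem2+/+ library for each gene. Purple, the macrophage-like cells, takes less of Cxcl1, Cxcl2, Cxcl3 and Cxcr4 in the Trem2-/- library, for Cxcl2 15.6% against 32.7%, and Cxcr2 is almost wholly in neutrophil-like cells in both.

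In the neutrophil-like class as a whole, Cxcl1, Cxcl2, Cxcl3, Cxcr2 and Cxcr4 differed by less than 1.5-fold between the libraries. Cxcl2 was at 25389 CPM (25105 to 25676) with Trem2-/- marrow and 26692 CPM (26416 to 26970) with Trem2+/+ marrow, or -0.07 on the log2 scale (-0.09 to -0.05). It was seen in 92.4% of cells in each library, with medians of 45 and 37 UMIs in a cell and at most 425 and 245. Cxcl3 was at 191 and 220 CPM (-0.20, -0.46 to 0.05) and Cxcl1 at 141 and 125 CPM (0.18, -0.13 to 0.50). Unlike Cxcl2, these sat in few cells: Cxcl1 in 28 of 541 and 25 of 720, and Cxcl3 in 36 and 50. The 10 cells with the most Cxcl1 held 80.6% and 83.8% of its UMIs.

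Cxcr2 was close to a private transcript of the neutrophil-like class. Those cells held 97.0% of Cxcr2 UMIs in the Trem2-/- library and 95.7% in the Trem2+/+ library. Its level was 717 CPM (669.9 to 766) with Trem2-/- marrow and 660 CPM (617 to 705) with Trem2+/+ marrow, or 0.12 on the log2 scale (-0.02 to 0.26). A Cxcr2 UMI was found in 64.0% of neutrophil-like cells (59.7 to 68.0) with Trem2-/- marrow and 56.8% (53.1 to 60.5) with Trem2+/+ marrow, at medians of 2146 and 1821 UMIs. With each cell thinned to 1000 UMIs the shares were 49.5% (45.1 to 53.9) and 42.7% (38.8 to 46.6). These intervals overlap, which does not show that the shares are equal. In B cell-like cells, which lack the receptor, 0.556% and 0% had a Cxcr2 UMI at medians of 1984 and 1733 UMIs; 0 of 779 cells allows a share of up to 0.385%. In macrophage-like cells, at medians of 6749.5 and 4894 UMIs, the shares were 0.278% and 0.673%, from 3 and 12 UMIs, and after thinning 0% and 0.195%, against 0.470% and 0% in B cell-like cells. Cxcr1, the other receptor of this kind, had 26 UMIs and 10 UMIs in neutrophil-like cells, or 21.6 CPM (14.1 to 31.7) and 7.46 CPM (3.58 to 13.7), a ratio of 1.54 (0.44 to 2.75) at a mean below 20 CPM.

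Cxcr4 in the same cells was at 529 CPM (489 to 572) with Trem2-/- marrow and 597 CPM (557 to 640) with Trem2+/+ marrow, a ratio of -0.17 (-0.33 to -0.02). A Cxcr4 UMI was in 55.8% and 55.3% of neutrophil-like cells, and after thinning 38.4% and 38.9%. Cxcl12 had 0 UMIs in neutrophil-like cells of either library, which allows levels of up to 2.50 and 2.24 CPM. Of the 5 genes whose mean reached 20 CPM in this class, 0 were past 1.5-fold, against 6.06% of all such genes.

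The neutrophil-like class was made of 2 clusters in which Cxcr2 stood in the opposite order to the ligands and to Cxcr4. Cluster 3 (334 and 431 cells) had more Cxcr2, at 913 CPM with Trem2-/- marrow and 886 CPM with Trem2+/+ marrow, against 400 and 334 CPM in cluster 14 (207 and 289 cells). Cluster 14 had more of each ligand. There Cxcl2 was at 36678 and 36350 CPM, against 18408 and 19973 CPM in cluster 3, and Cxcl3 at 444 and 502 CPM, against 35.0 and 24.0 CPM. Cxcl1 was at 268 and 158 CPM in cluster 14, a ratio past 1.5-fold higher (0.76, 0.35 to 1.17), and at 63.3 and 101 CPM in cluster 3, a ratio past 1.5-fold lower (-0.68, -1.23 to -0.14). Cxcr4 was at 618 and 694 CPM in cluster 14 and at 474 and 530 CPM in cluster 3. The number of Cxcr2 UMIs per Cxcr4 UMI was 0.648 and 0.482 in cluster 14 and 1.93 and 1.67 in cluster 3. Over the whole class it was 1.36 (1.222 to 1.504) with Trem2-/- marrow and 1.10 (1.003 to 1.217) with Trem2+/+ marrow. Clusters were drawn from the same cells' expression, so these differences between clusters are descriptions. Cxcl2 and Cxcl3 were among the top 10 genes of cluster 14 by fold. Clusters are called by number, since neutrophil markers were not among the top 10 genes of cluster 14, although 9 of the 10 were detected in it.

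Other genes, named here after their values were seen, separated the clusters in the same direction in both libraries. The adhesion ligand Icam1 was at 1097 and 970 CPM in cluster 14 and 158 and 197 CPM in cluster 3. The chemokine genes Ccl3 (3358 and 4576 against 1226 and 2200 CPM) and Ccl4 (8143 and 11745 against 3215 and 5017 CPM) were also higher there, as was the NF-kB subunit gene Relb (159 and 156 against 28.3 and 31.6 CPM). The granule and maturation genes Retnlg (1343 and 2332 against 8033 and 7998 CPM), Mmp9 (490 and 518 against 961 and 989 CPM) and Mmp8 (67.5 and 54.5 against 211 and 158 CPM) were lower in cluster 14. So was Csf3r, the receptor of the growth factor G-CSF (853 and 823 against 1490 and 1345 CPM). Other granule and maturation genes did not all go that way. Lcn2 was close (1822 and 1581 against 2022 and 1827 CPM), and Cebpb was higher in cluster 14 (7507 and 6733 against 5623 and 5349 CPM).

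**Figure D3:**
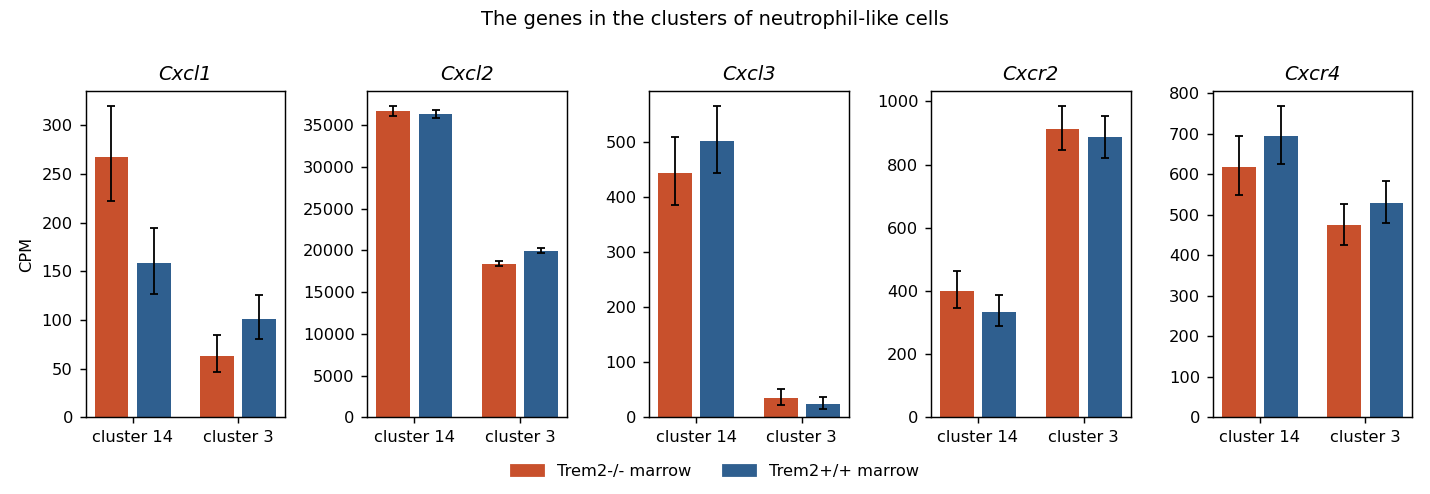
CPM of 5 genes in both clusters of neutrophil-like cells, Trem2-/- marrow left of Trem2+/+ marrow in each pair, with exact 95% Poisson intervals. Cxcl1, Cxcl2 and Cxcl3 are higher in cluster 14 and Cxcr2 is higher in cluster 3 in both libraries, with Cxcr2 at 400 and 334 CPM in cluster 14 and 913 and 886 CPM in cluster 3.

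Genes past 1.5-fold in neutrophil-like cells were also counted in lists around CXCR2. Over all genes of the class whose mean reached 20 CPM, 6.06% were past 1.5-fold in either direction. Of 8 other attractant receptors, 1 was past 1.5-fold higher, and the median ratio was 0.09, beside -0.03 over all genes of the class. It was Ltb4r1, the leukotriene B4 receptor, at 49.9 and 29.8 CPM (0.74, 0.14 to 1.36). Of 16 measured maturation and release genes, 2 were higher, with a median of 0.05. Both are granule genes whose UMIs were mostly in a single cell for each gene: in the Trem2-/- library 1 cell held 197 of 200 Camp UMIs, and 1 cell, the same or another, held 134 of 163 Ngp UMIs. The Trem2+/+ library had 4 Camp UMIs and 39 Ngp UMIs. Of 17 genes of chemokine receptor signalling, 0 were past 1.5-fold with an interval off 0 (median -0.06), and Rgs18, a brake on G protein signals, had the largest ratio (26.6 and 41.0 CPM, -0.62, -1.30 to 0.03). Of 13 inducers and NF-kB genes, 1 was higher, the cytokine gene Il1a (126 and 73.8 CPM, 0.78, 0.40 to 1.16). Il1b was at 17098 and 16444 CPM (0.06), and Tnf at 782 and 1104 CPM (-0.50, -0.62 to -0.38), short of 1.5-fold. None was past 1.5-fold among 9 genes of chemokine mRNA decay and feedback (median -0.01), 8 of hypoxia and CXCR4 control (-0.07) and 13 of dissociation stress (-0.04).

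In Ly6C-high monocyte-like cells, Cxcl1 was 2.40-fold higher in the Trem2-/- library, at 203 CPM (186 to 220) against 84.3 CPM (74.2 to 95.4) with Trem2+/+ marrow, or 1.27 on the log2 scale (1.05 to 1.49). It was the only 1 of the 3 genes whose mean reached 20 CPM there that was past 1.5-fold, beside 2.4% of all such genes. The 556 and 250 UMIs behind it came from 44 of 395 cells (11.1%, 8.21 to 14.7) and 30 of 506 cells (5.93%, 4.04 to 8.36). The 10 cells with the most UMIs held 63.3% and 80.4% of them, and without those 10 cells of each library the ratio was 2.18. With each library clustered alone it was 0.84, in 262 and 562 cells. Thinned to 1000 UMIs, 6.38% (4.17 to 9.27) and 3.31% (1.91 to 5.32) of cells had a Cxcl1 UMI. The intervals overlap, which does not show that the shares are equal. The share in B cell-like cells was 0.556% and 0.128%, and 0% and 0.150% after thinning. At resolution 2, a monocyte-like cluster of 228 and 356 cells had Ace, a marker of nonclassical monocytes, among its top genes. A further monocyte-like cluster of 157 and 129 cells had Vcan and F13a1 among its top genes, and Chil3 was among the top genes of both clusters. The mix of such cells thus differed between the libraries, and its part in the ratios of this class was not tested.

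Cxcl2 in monocyte-like cells was at 4218 CPM (4142 to 4296) with Trem2-/- marrow and 3290 CPM (3225 to 3355) with Trem2+/+ marrow, a ratio of 0.36. It was uneven from cell to cell. The median cell had 2 UMIs in each library, 158 and 222 cells had none, and at least 10 UMIs were found in 40.3% and 37.4% of cells. After thinning, the cells with a Cxcl2 UMI made up like shares with overlapping intervals, 47.7% (42.7 to 52.8) and 47.4% (42.9 to 52.0). Cxcr4 was at 177 and 214 CPM (-0.28, -0.45 to -0.11) and Cxcl3 at 8.02 and 4.38 CPM, from 22 and 13 UMIs.

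The ligand UMIs of these cells were far more numerous per neutrophil marker UMI than in neutrophils. In neutrophil-like cells there were 265 and 311 Cxcl2 UMIs per 1000 UMIs of S100a8 and S100a9, which mark neutrophils. In monocyte-like cells there were 22046 and 9835, and in macrophage-like cells 18575 and 13162. In endothelial-like cells the number was 594 and 684, and in B cell-like cells 556 and 1100. Those also exceed the numbers of neutrophil-like cells, so exceeding them was not particular to monocyte-like and macrophage-like cells. The part of neutrophil RNA in these counts was not tested.

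A pair of cytokine genes that can induce the chemokines was also higher in monocyte-like cells of the Trem2-/- library. Over all genes of the class whose mean reached 20 CPM, 2.4% were past 1.5-fold in either direction. Of 13 measured inducers and NF-kB genes, 2 were past 1.5-fold higher and 0 lower, with a median of 0.10, beside 0.00 over all genes of the class. They were Il1a at 99.9 and 33.0 CPM (1.60, 1.26 to 1.94) and Il6 at 120 and 67.4 CPM (0.83, 0.58 to 1.10). Il1b was at 4557 and 3523 CPM (0.37) and Tnf at 977 and 830 CPM (0.24). Of 12 maturation and release genes, 3 were higher, namely Lcn2, an iron-carrier-binding granule protein (91.8 and 37.8 CPM, 1.28), Mmp8 (54.7 and 28.7 CPM, 0.93) and Chil3, also a marker used to name these cells (2051 and 1288 CPM, 0.67). Of 8 hypoxia and CXCR4 control genes, 2 were higher, Vegfa at 116 and 68.1 CPM (0.77) and the glucose transporter gene Slc2a1 at 103 and 67.4 CPM (0.61). Of 15 genes of the dissociation stress list, 2 were higher, Hspa1a (99.5 and 56.6 CPM, 0.81) and Hspa1b (51.4 and 16.5 CPM, 1.64), and the list's median was 0.10. The part of handling stress in the Cxcl1 ratio was not tested. Pf4, a platelet and macrophage CXC ligand, was lower (20.4 and 31.4 CPM, -0.62), with 50 of 56 and 43 of 93 UMIs in 1 cell of each library. None was past 1.5-fold among 8 other attractant receptors (median 0.10), 16 genes of chemokine receptor signalling (0.03) and 10 of mRNA decay and feedback (-0.04).

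**Figure D4:**
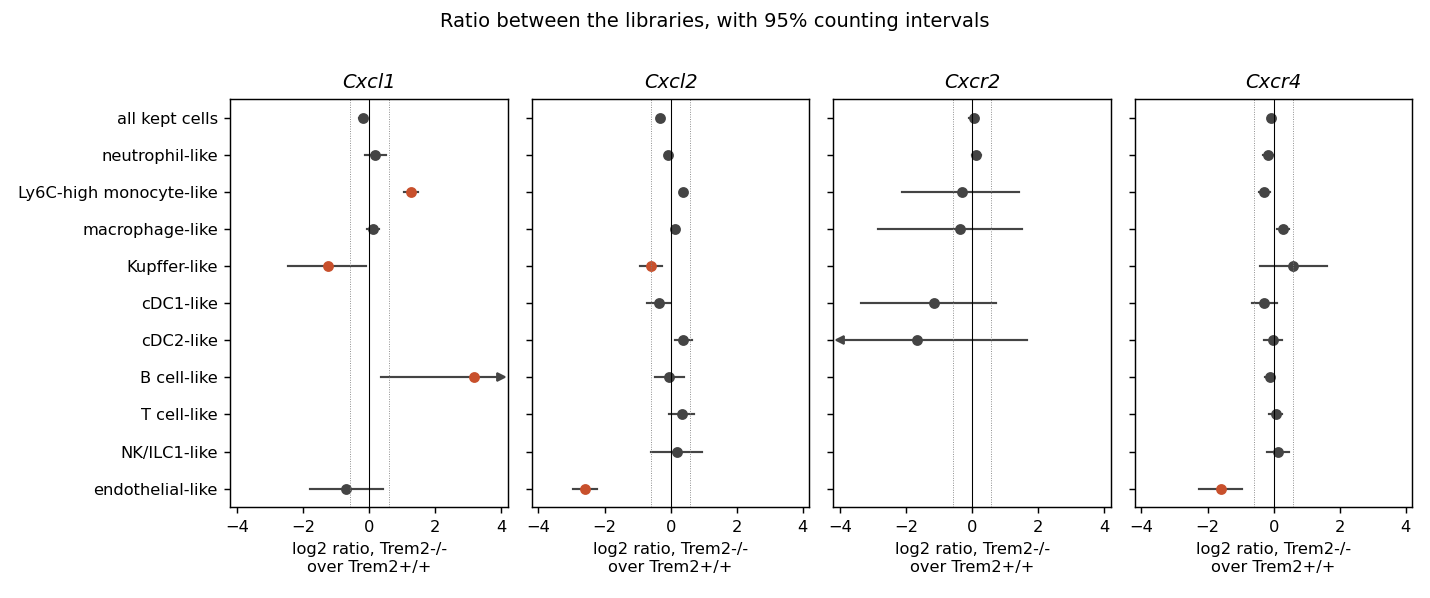
Log2 ratios of Cxcl1, Cxcl2, Cxcr2 and Cxcr4, Trem2-/- over Trem2+/+, in all kept cells and in 10 classes, with 95% counting intervals as lines, arrows where an interval runs off the axis, dotted lines at 1.5-fold, and red points for ratios past 1.5-fold with an interval off 0. Cxcl1 stands at 1.27 in Ly6C-high monocyte-like and 3.18 in B cell-like cells and at -1.24 in Kupffer-like cells, and Cxcr2 has no red point.

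In macrophage-like cells, the ligands and Cxcr4 had ratios slightly above 0 that did not keep their sign under every alternative. Cxcl2 was at 3241 CPM (3171 to 3312) with Trem2-/- marrow and 2956 CPM (2918 to 2995) with Trem2+/+ marrow (0.13, 0.10 to 0.17). Cxcl1 was at 136 and 124 CPM (0.13, -0.06 to 0.31), Cxcl3 at 58.4 and 48.3 CPM (0.28, -0.01 to 0.55) and Cxcr4 at 139 and 114 CPM (0.28, 0.10 to 0.46). Of the 4 genes whose mean reached 20 CPM, 0 were past 1.5-fold, against 3.12% of all such genes. Without the 10 highest cells of each library the ratio was -0.13 for Cxcl2 and -0.39 for Cxcl1. Those 10 cells, of 360 and of 1337, held 27.2% and 8.90% of Cxcl2 UMIs and 54.7% and 32.8% of Cxcl1 UMIs. Leaving them out thus takes more from the Trem2-/- library, so these values cannot show whether the ratios change sign. As a mean over cells it was -0.19 for Cxcl3 and -0.04 for Cxcr4, for Cxcl3 it was -0.14 with each library clustered alone, and for Cxcr4 it was -0.19 with clusters weighted equally. Cxcl3 had UMIs in 8 of 360 cells and 41 of 1337 cells, and 1 cell of the Trem2-/- library held 91 of its 148.

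The 3 clusters of the class differed in Cxcl2. Cluster 4 was the main source, with Cxcl2 at 5492 CPM (129 cells, Trem2-/- marrow) and 4012 CPM (549 cells, Trem2+/+ marrow), a ratio of 0.45 (0.41 to 0.49). Cluster 11 had 1471 CPM (141 cells) and 1399 CPM (373 cells), a ratio of 0.07 (-0.01 to 0.15). Cluster 13, whose cells had a median of 696 UMIs, had 224 CPM (90 cells, 25 UMIs) and 1305 CPM (415 cells, 488 UMIs), a ratio of -2.54 (-3.18 to -1.96). Thus cluster 11 was the largest of the class with Trem2-/- marrow and cluster 4 with Trem2+/+ marrow. Cxcl3 was at 118 and 79.4 CPM in cluster 4, at 9.43 and 0.361 CPM (12 UMIs and 1 UMI) in cluster 11, and at 0 and 13.4 CPM (0 and 5 UMIs) in cluster 13.

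Among related genes of macrophage-like cells, both interleukin-1 genes were higher with Trem2-/- marrow. Over all genes of the class whose mean reached 20 CPM, 3.12% were past 1.5-fold in either direction. Of 13 inducers and NF-kB genes, 2 were past 1.5-fold higher and 0 lower (median 0.13, beside 0.00 over all genes), Il1a at 93.5 and 47.9 CPM (0.97, 0.73 to 1.21) and Il1b at 1828 and 1140 CPM (0.68, 0.63 to 0.73). Of 3 other CXC ligands, 1 was lower, Cxcl14 (35.1 and 54.6 CPM, -0.64), and Pf4 was at 259 and 240 CPM (0.11). Of 3 other receptors, none was past 1.5-fold, and Cd74, a receptor of the chemokine-like factor MIF as well as the class II invariant chain, was at 19109 and 13241 CPM (0.53). Of 2 ligand processing genes, 1 was lower, the protease gene Ctsk (11.4 and 32.1 CPM, -1.49). In the dissociation stress list 2 of 15 were higher, Hspa1a (137 and 54.3 CPM, 1.34) and Hspa1b (152 and 148 UMIs, 1.66), with a median of 0.20, and its part in these ratios was not tested. Of 9 measured maturation and release genes, 1 was higher, Chil3 (43.0 and 28.7 CPM, 0.59). None was past 1.5-fold among 7 other attractant receptors (median 0.06), 17 genes of chemokine receptor signalling (0.05), 10 of mRNA decay and feedback (0.20) and 8 of hypoxia and CXCR4 control (0.30).

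Spread over cells set Cxcl2 apart from its paralogues. The 20% of cells with the most Cxcl2 held 49.7% of its UMIs in neutrophil-like cells of each library. In monocyte-like cells they held 78.9% and 79.8%, and in macrophage-like cells 86.0% and 84.0%. For Cxcl1, 10% of cells held 99.3% and 100% of UMIs in monocyte-like cells and 94.8% and 99.0% in macrophage-like cells. Cxcl1 was found mostly in cells that also had Cxcl2: after thinning, 12.8% (8.40 to 18.5) and 6.11% (3.38 to 10.0) of Cxcl2-positive monocyte-like cells had Cxcl1, against 0.488% and 0.787% of those without Cxcl2. In macrophage-like cells the shares were 14.2% (8.88 to 21.1) and 9.96% (7.55 to 12.8), against 1.26% and 1.22%. In neutrophil-like cells, Cxcr2 was about as frequent in cells with Cxcr4 as in cells without it. Cxcr2 was in 52.3% (45.1 to 59.4) and 44.2% (37.9 to 50.6) of cells with Cxcr4 and in 47.8% (42.2 to 53.5) and 41.7% (36.8 to 46.8) of those without.

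**Figure D5:**
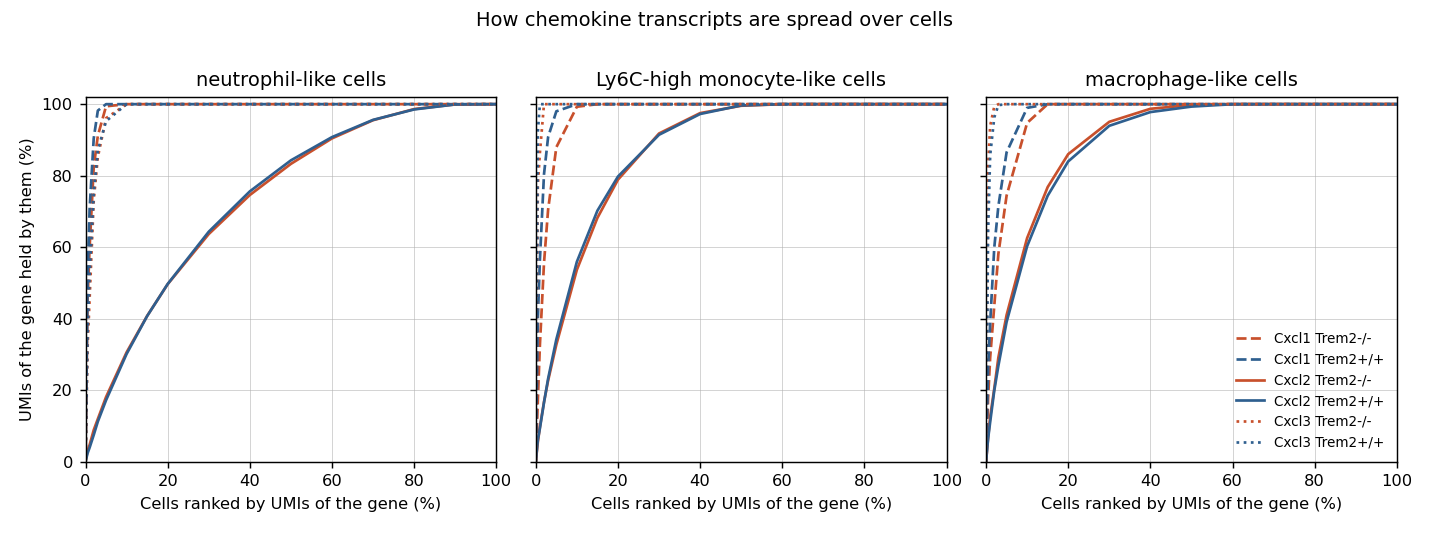
Cumulative share of the UMIs of Cxcl1, Cxcl2 and Cxcl3 (%) against the share of cells (%), cells ranked from the most UMIs, in 3 classes, red for Trem2-/- and blue for Trem2+/+ marrow. Cxcl2 rises gradually in neutrophil-like cells, where 20% of cells hold 49.7% of UMIs, and Cxcl3 is complete within 10% of cells in each class.

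In Kupffer-like cells, resident macrophages of the liver sinusoids, both measured ligands had ratios below 0 that rested on few cells. Cxcl2 was at 185 CPM (156 to 219) with Trem2-/- marrow and 282 CPM (240 to 328) with Trem2+/+ marrow (-0.60, -0.94 to -0.27). A single cell held 80 of the 164 UMIs of the Trem2+/+ library, and without the 10 highest cells of each library the ratio turned to 1.14. Cxcl1 was at 14.6 and 34.4 CPM (-1.24, -2.45 to -0.11), from 11 UMIs in 5 cells and 20 UMIs in 4 cells. Shares of cells with a UMI were close, 19.6% and 17.0% for Cxcl2 and 2.58% and 2.42% for Cxcl1. So 2 of 3 genes were past 1.5-fold, beside 5.73% of all genes. Neither direction held when each library was clustered alone (1.16 for Cxcl2 and 1.47 for Cxcl1), but that covers a larger set of cells. Kupffer-like clusters then had 385 and 48 cells with Trem2-/- marrow and 276 with Trem2+/+ marrow, against 194 and 165 here. In the cluster of 385 cells, macrophage markers came second at a mean log2 fold of 2.28, against 0.99 here. Cxcr4 was at 35.8 and 24.1 CPM (0.57, -0.41 to 1.62) and Cxcr2 at 0 in both, which allows up to 3.97 and 5.15 CPM.

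Inducers of the ligands had mostly ratios above 0 in Kupffer-like cells. Over all genes of the class whose mean reached 20 CPM, 5.73% were past 1.5-fold in either direction. Of 13 inducers and NF-kB genes, 5 were higher and 1 lower, with a median of 0.72, beside 0.04 over all genes of the class. Il1b was at 382 and 163 CPM (1.23, 0.89 to 1.58) and Il1a at 67.6 and 22.3 CPM (1.60), and the bacterial product sensors Tlr2 (63.6 and 36.1 CPM, 0.82) and Tlr4 (59.6 and 32.6 CPM, 0.87) were also past 1.5-fold. Nfkb1, an NF-kB subunit gene (149.7 and 91.0 CPM, 0.72), and, as the lower one, Il17ra, an interleukin-17 receptor gene (50.3 and 84.2 CPM, -0.74), were chosen after their values were seen. Of 10 decay and feedback genes, 3 were higher: Zfp36, whose product destabilises chemokine mRNA (355 and 228 CPM, 0.64), Zfp36l1 (244 and 139 CPM, 0.81) and Tnfaip3 (134 and 73.9 CPM, 0.86). Pf4 was lower, at 174 and 519 CPM (-1.58, -1.89 to -1.28), with UMIs in 49 and 76 cells. Of 5 other attractant receptors, 1 was higher, Fpr1, a receptor for bacterial peptides (219 and 131 CPM, 0.74), and 1 was lower, Csf3r (19.9 and 42.9 CPM, -1.11, -2.14 to -0.13; 15 and 25 UMIs; named after its values were seen), with a median of -0.11. Of 9 maturation and release genes 1 was higher, Icam1 (98.0 and 53.3 CPM, 0.88; median 0.38), and of 16 signalling genes 1 was higher, Prex1, an effector of chemokine receptors (143 and 84.2 CPM, 0.77; median 0.13). In the dissociation stress list 4 of 15 were higher and the median was 0.35, and its part was not tested.

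In endothelial-like cells, Cxcl2 was at 25.5 CPM with Trem2-/- marrow (20.3 to 31.6) and at 152 CPM with Trem2+/+ marrow (135 to 171), a ratio of -2.58. In the Trem2+/+ library 10 cells held 73.6% of its 284 UMIs, 1 of them 98. The ratio was -1.09 without the 10 highest cells of each library and -0.32 without the barcodes of highest doublet score. Shares of cells with a UMI, 7.32% and 10.6% at medians of 2957.5 and 2308 UMIs, were near the 9.04% and 7.45% of B cell-like cells. After thinning they were 1.68% and 3.01%, against 5.33% and 4.79% in B cell-like cells. The class has 2 clusters: in cluster 1 the shares before thinning were 7.44% and 7.27% at medians of 3891 and 3600 UMIs, and in cluster 6 they were 7.07% (4.49 to 10.5) and 15.03% (11.1 to 19.7) at medians of 787 and 903 UMIs. Cxcl2 in cluster 6 was at 72.4 and 227 CPM (-1.65, -2.36 to -0.98), and at 19.8 and 135 CPM in cluster 1 (-2.77, -3.22 to -2.34). The 10 neutrophil markers summed to 128 and 302 CPM in endothelial-like cells, with 1 of 10 at 0 in each library. Markers and Cxcl2 did not move alike in every class. In mature dendritic-like cells the markers were at 36.9 and 126 CPM and Cxcl2 at 28.0 and 287 CPM. In type 1 conventional dendritic-like cells they were at 130 and 821 CPM, with Cxcl2 at 57.5 and 74.0 CPM. In B cell-like cells they were at 140 and 83.1 CPM, with Cxcl2 at 62.1 and 64.2 CPM. Cxcr4 was at 10.3 CPM (7.06 to 14.4) and 31.1 CPM (23.6 to 40.2), a ratio of -1.60 (-2.26 to -0.96) that was -1.04 without the highest doublet scores. Thus 2 of 2 genes whose mean reached 20 CPM were past 1.5-fold, beside 2.45% of all genes. The leukocyte genes Rac2 (32.0 and 60.6 CPM, -0.92) and Il1b (42.9 and 81.0 CPM, -0.92) were lower too. Their part in the Cxcl2 and Cxcr4 ratios was not tested.

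Endothelial-like cells also carried the scavenging receptors of these ligands. Ackr1, which binds many inflammatory chemokines without signalling, was at 20.8 CPM (16.1 to 26.4) with Trem2-/- marrow and 32.7 CPM (25.0 to 42.0) with Trem2+/+ marrow (-0.65, -1.17 to -0.13), and these cells held 67 of 73 and 61 of 73 of its UMIs. Ackr3, the second receptor of CXCL12, was at 9.33 and 12.9 CPM (-0.47, -1.29 to 0.37). Of the 15 dissociation stress genes, 6 were higher in the Trem2-/- library and 0 lower, with a median of 0.39, beside 0.02 over all genes of the class. Over all genes of the class whose mean reached 20 CPM, 2.45% were past 1.5-fold in either direction.

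Cxcl12 was a stromal transcript in these libraries. The stellate or fibroblast-like cells, 12 in the Trem2-/- library and 14 in the Trem2+/+ library, held 61.9% (51.4 to 71.5) and 65.7% (57.2 to 73.5) of its UMIs. Its level there was 1240 CPM (946 to 1596; 60 UMIs in 9 cells) and 1014 CPM (818 to 1244; 92 UMIs in 13 cells). Endothelial-like cells stood at 4.04 CPM (13 UMIs) and 3.76 CPM (7 UMIs), a ratio of 0.11 (-1.33 to 1.67), and macrophage-like cells at 3.16 and 2.30 CPM. A sort for CD45+ cells removes most stromal cells, so these libraries say little of the liver's Cxcl12. The same stellate or fibroblast-like cells had 53 Cxcl2 UMIs in the Trem2-/- library, all in 1 cell, and 2 in the Trem2+/+ library. Cholangiocyte-like cells, lining cells of bile ducts, had 27 Cxcl1 UMIs in 12 cells (183 CPM, 121 to 267) with Trem2-/- marrow and 14 in 19 cells (70.9 CPM, 38.7 to 119) with Trem2+/+ marrow. Cxcl5, another ligand of CXCR2, had 33 and 19 UMIs in all kept cells.

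Cxcr4 was the broadest of the 6 genes. It was highest in B cell-like cells, at 602 CPM (563 to 642) with Trem2-/- marrow and 656 CPM (614 to 700) with Trem2+/+ marrow (-0.12, -0.26 to 0.01), and next in neutrophil-like cells, at 529 and 597 CPM, whose intervals overlap those of B cell-like cells. Then, from 214 down to 114 CPM and partly overlapping, came monocyte-like (177 and 214 CPM), type 2 conventional dendritic-like (cDC2; 179 and 181 CPM), NK/ILC1-like (162 and 149 CPM), T cell-like (138 and 132 CPM) and macrophage-like cells (139 and 114 CPM). Type 1 conventional dendritic-like cells (cDC1), at 53.4 and 65.1 CPM, and Kupffer-like cells, at 35.8 and 24.1 CPM, stood below those. Among smaller classes, mature dendritic-like cells (90 and 88 cells) were at 134 and 78.8 CPM (0.77, 0.24 to 1.31) and plasmacytoid dendritic-like cells (42 and 67 cells) at 94.5 and 106 CPM. B cell-like cells held 23.0% and 19.7% of Cxcr4 UMIs, neutrophil-like cells 16.0% and 17.6%, T cell-like cells 13.8% and 7.31%, and macrophage-like cells 8.85% and 19.5%.

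In the remaining classes the genes were low or close. In B, T, NK/ILC1, cDC1 and cDC2-like cells, 0 of 10 gene and class pairs whose mean reached 20 CPM were past 1.5-fold, where 4.35%, 5.59%, 3.99%, 2.82% and 5.42% of all genes were. Cxcl2 in cDC2-like cells was at 239 and 184 CPM (0.37), and 98.8% and 91.6% of those UMIs were in 10 cells. Below 20 CPM, Cxcl1 in B cell-like cells had 10 UMIs in 4 of 719 cells with Trem2-/- marrow and 1 UMI in 779 cells with Trem2+/+ marrow, a ratio of 3.18 (0.37 to 8.62) that was 0.85 without the highest doublet scores. Over the 10 classes together, 5 of 27 gene and class pairs whose mean reached 20 CPM were past 1.5-fold, 1 higher and 4 lower, where 2.4% to 6.06% of all genes were in each class. Of the 4 lower ones, Cxcl1 and Cxcl2 in Kupffer-like cells turned to 1.47 and 1.16 with each library clustered alone, over a larger set of cells.

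Genes with the most similar pattern were ranked by Pearson correlation of log2(CPM + 10) over 24 sums (12 classes in 2 libraries) among 6241 genes, and these values are descriptions because the sums share libraries. For Cxcl2 they were Clec4d (0.97), Clec5a (0.96), Il1rn (0.95), C5ar1 (0.95) and Acod1 (0.94), genes of activated myeloid cells. For Cxcl1 they were C5ar1 (0.93), Il1rn (0.93), Thbs1 (0.93), Olr1 (0.92) and Sod2 (0.92). For Cxcl3 they were Phospho1 (0.93), Gla (0.93), Clec4d (0.92), Arg2 (0.90) and Acod1 (0.90). For Cxcr2 they were Stfa2l1, Cstdc5, Cstdc4, Chil1 and Mrgpra2b, each at 0.99. For Cxcr4 they were Nfkbid (0.92), Sorl1 (0.91), Retreg1 (0.91), Ezr (0.90) and Per1 (0.89). For Cxcl12, with no class of stromal cells among the sums, Vapb (0.90), Rxylt1 (0.88), Mcfd2 (0.88), Slc39a1 (0.87) and Slc38a6 (0.87) led. Cxcl12 was at no more than 5.15 CPM in these sums, below the 10 CPM added before the log. Its correlations therefore rest on very low counts. Among the 6 genes, Cxcl1 and Cxcl2 were most alike (0.91), then Cxcl2 and Cxcl3 (0.85) and Cxcl3 and Cxcr2 (0.84). The lowest value was that of Cxcr4 and Cxcl12 (-0.69), which rests on the low Cxcl12 counts.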

How the data were processed

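Per the labels, RNA was captured with the Chromium Next GEM 5' v2 kit from cells released with a mouse liver dissociation kit. The deposited files hold raw UMI counts per gene and barcode with lists of gene and barcode names, made by the authors. The headers of the files name Cell Ranger 5.0.1, and the submitters' processing notes name mm10 as the build. No source used here gives the annotation release, and 32158 of 32285 gene identifiers (99.6%) were found in GENCODE M21, the source of gene positions. Exact Poisson and binomial intervals cover counting error only.

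Kept barcodes had 200 genes or more, no more than 10% of UMIs from mitochondrial genes, and no doublet call. Scrublet called 4 and 2 doublets (0.0449% of 13374 barcodes), which means that it had not worked, and doublets remain. Values for clustering were logs of counts scaled to a total of 10000. Clustering used scanpy 1.11.5 and leidenalg 0.10.2 under Python 3.11.15, 2000 variable genes without the 6 genes and without Trem genes, 30 principal components, 15 neighbours and resolution 1. Clusters were named from markers of 24 classes, with at least 3 detected, and 16.9% and 10.4% of kept cells stayed unnamed because markers were too few or mixed. Names were rebuilt here, so class shares may differ from the study's own. Ratios of classes are given and counted for the 10 classes of at least 100 cells per library and only where 1 library has more than 3 UMIs. The Cxcr4 ratio of mature dendritic-like cells, past 1.5-fold, and the ratios of single clusters are given besides and are outside those counts. Named list genes are the 4 with the largest ratio in each list, among those with a mean of at least 20 CPM, 50 UMIs and 1.5-fold; similar genes are the 5 of highest correlation. Genes given outside these rules were chosen after their values were seen. The 6 genes, the lists and the rules were chosen with earlier results of these data known. The ratios and intervals were tested on simulated data. The alternatives were the cell filters, clustering settings, normalization, 5% of barcodes with the highest doublet scores left out, fixed class totals, and, added after the data were seen, the 10 highest cells left out and clusters weighted equally.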

Additional observations from a re-analysis of the deposited data

Results flagged for a closer look

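In the 10 larger classes (100 cells or more per library), Cxcl1 was the only gene of the 6 whose ratio was past 1.5-fold in opposite directions in different classes, and the difference between the classes was not tested because each group is 1 library. The log2 ratio was 1.27 in Ly6C-high monocyte-like cells, from 556 UMIs with Trem2-/- marrow and 250 with Trem2+/+ marrow. It was -1.24 in Kupffer-like cells, from 11 and 20 UMIs, and 3.18 in B cell-like cells, from 10 UMIs and 1 UMI. The lower direction rests on the Kupffer-like cells, where the ratio was 0.43 as a mean over cells. With each library clustered alone, over a larger set of Kupffer-like cells, it was 1.47. In B cell-like cells it was 0.85 without the highest doublet scores, and in monocyte-like cells 0.84 with each library clustered alone.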

How the results depend on the processing

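Over 407 recomputed values of 42 log2 ratios, 355 kept the sign and 344 stayed within the reported interval. Fixed class totals gave 0.41 for Cxcl1, 0.0611 for Cxcl2, 0.16 for Cxcl3, -0.0279 for Cxcr4 and 0.19 for Cxcl12 over all kept cells. Without the 10 highest cells these were -0.34 for Cxcl1, -0.35 for Cxcl2 and -0.95 for Cxcl3. Averaging over cells gave -0.42 for Cxcl2, -0.15 for Cxcr2, -0.24 for Cxcr4 and 0.12 for Cxcl12. Cxcl2 over all kept cells was -0.28 under stricter cell filters, -0.29 in cells of at least 1000 UMIs and -0.28 without the highest doublet scores. In neutrophil-like cells Cxcl2 was -0.0440 without those scores, -0.0321 with clusters weighted equally and -0.10 without the 10 highest cells. In macrophage-like cells Cxcl2 was 0.19 at resolution 2, 0.40 with each library clustered alone, 0.0375 with the 6 genes allowed in clustering, -0.0047 as a mean over cells and -0.13 without the 10 highest cells; there Cxcl1 was -0.39 without the 10 highest cells, Cxcl3 -0.19 as a mean over cells and Cxcr4 -0.19 with clusters weighted equally. The 10 cells left out were a larger part of the 360 macrophage-like cells of the Trem2-/- library than of the 1337 of the Trem2+/+ library. In Kupffer-like cells, clustering alone gave 1.47 for Cxcl1 and 1.16 for Cxcl2, over a larger set of cells. Means over cells gave 0.43 and 0.39, and Cxcl2 without the 10 highest cells was 1.14. Cxcl1 in monocyte-like cells ranged from 0.84 to 2.18 and Cxcr2 in neutrophil-like cells from 0.10 to 0.14. The cause of these shifts was not tested. No paired analysis was possible because each group is 1 library.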
